A study of Mus musculus with 8 samples.

Results

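The genes described here are 10 genes of the skin barrier, Abca12, Alox12b, Aloxe3, Elovl4, Elovl1, Ugcg, Sptlc2, Degs2, Tgm1 and Tgm3. They were chosen by symbol, for their roles in lipid transport, lipoxygenase chemistry, ceramide synthesis and protein crosslinking, at a time when earlier results of these data were known. All 10 were among the 23433 gene symbols counted, and 9 passed the filter on low counts, Degs2 being the exception. Tgm1 and Tgm3 encode crosslinking enzymes and are no lipid genes in the strict sense.

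The samples were 8 RNA-seq libraries from skin cells of 4 mouse pups of mixed strain background at postnatal day 0.5. From each pup, keratinocytes carrying the red K14RFP reporter and high for α6 integrin, a protein of basal cells, were sorted into a P-cadherin-high fraction, labelled hair germ, and a P-cadherin-low fraction, labelled interfollicular epidermis (IFE). Pups 4 and 6 were transgenic and carried pTRE2-200bcl, a doxycycline-responsive miR-200 construct, with K14rtTA, a transactivator that the keratin 14 promoter drives. Control pup 3 carried K14rtTA alone and control pup 5 carried pTRE2-200bcl alone, so the controls differed in genotype and each control genotype was 1 animal. The mothers of all groups ate doxycycline chow for the whole pregnancy. Each of the 4 groups, 2 populations by 2 genotypes, therefore held 2 libraries, and the series addresses the miR-200 family in hair follicle development.

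The outer barrier of the epidermis is built in the granular layer. There, keratinocytes load lamellar granules with glucosylceramides, secrete them, and replace the inside of the plasma membrane with a crosslinked protein envelope to which ceramides with very long acyl chains are bound. Inherited loss of Abca12, Alox12b, Aloxe3 or Tgm1 function causes congenital ichthyosis, a group of scaling skin disorders, and mice that lack Elovl4 or Abca12 die soon after birth with a leaking skin. The cells sorted here were basal by their surface markers, and basal cells lie below the layer in which these products are known to act. Transcripts of suprabasal and immune cells were also counted in these libraries, as given below.

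The miR-200 family has 5 mature microRNAs, which pair with messenger RNAs mainly through bases 2 to 8, the seed. Those of miR-200b, miR-200a and miR-429 lie on chromosome 4, and those of miR-200c and miR-141 on chromosome 6. Which of the 5 the construct pTRE2-200bcl adds was not examined here. All 5 are printed from RefSeq (GRCm38.p6) with the seed in capitals, because they fall into 2 seed groups, AAUACUG in the first 3 and AACACUG in the other 2.
miR-200b-3p: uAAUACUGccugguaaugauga
miR-200c-3p: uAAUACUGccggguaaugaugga
miR-429-3p: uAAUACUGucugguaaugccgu
miR-200a-3p: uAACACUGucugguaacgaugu
miR-141-3p: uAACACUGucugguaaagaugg

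In the annotated 3' untranslated regions (UTRs) of the 10 genes, 1 transcript a gene from GENCODE vM21, the 7-base complement of a seed occurred in 2 genes. Aloxe3 held 1 match to the AACACUG seed, at bases 173 to 179 of a UTR of 376 bases. Sptlc2 held 1 match to each seed in a UTR of 4843 bases, at 3167 to 3173 for AACACUG and at 2968 to 2974 for AAUACUG. The 3 matches are shown in capitals with 10 bases on either side.
Aloxe3, bases 173 to 179: accagtacagCAGTGTTcagggtgaaa
Sptlc2, bases 3167 to 3173: gctgttctccCAGTGTTctaggtaaga
Sptlc2, bases 2968 to 2974: tacctaattgCAGTATTttgacaaaac
The other 8 UTRs, among them those of Abca12 (1021 bases) and Elovl4 (1848 bases), held neither 7-base match. Over all 20973 annotated UTRs, whose median length was 955 bases, 25.7% held at least 1 match, 17.1% to CAGTGTT and 13.2% to CAGTATT. A match is a run of letters, and binding was not measured.

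A counted feature named miR200primary, whose coordinates were not given in the sources used here, marked the libraries by their labels. In hair germ it had 0.176 and 1.40 CPM (counts relative to the library total, scaled by TMM library factors) in control pups 3 and 5, and 525.7 and 797.5 CPM in transgenic pups 4 and 6. In IFE it had 3.83 and 2.63 CPM in the controls, and 606.8 and 714.1 CPM in the transgenic pups. Control pup 3, which carried no pTRE2-200bcl, had some counts of this feature, so not all of its counts can be assigned to the construct. Every library held between 7109871 and 14039583 counts in genes. The ribosomal transcript Rn45s took 30.6% of these in the IFE library of control pup 3 and 29.0% in that of transgenic pup 4, against 3.56% to 13% in the other 6, so values are also given without these 2 libraries.

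Expressed per kilobase of exon and averaged over the 8 libraries, the elongase Elovl1 had the highest level (11.3 CPM per kb), followed by Sptlc2 (8.94), Elovl4 (8.15) and Abca12 (7.61). Ugcg had 4.94, Tgm1 4.02, Tgm3 3.05 and Aloxe3 2.97 CPM per kb. Alox12b (0.332) and Degs2 (0.178) lay more than 8-fold lower. The order changed between groups, since Elovl4 and Abca12 had 3.00 and 3.53 CPM per kb in control hair germ, below Elovl1 at 7.61, and 13.7 and 11.9 in transgenic hair germ, above Elovl1 at 10.2. With 2 pups a group, neighbours in this order were not separated beyond their spread by any test made here.

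**Figure D1:**
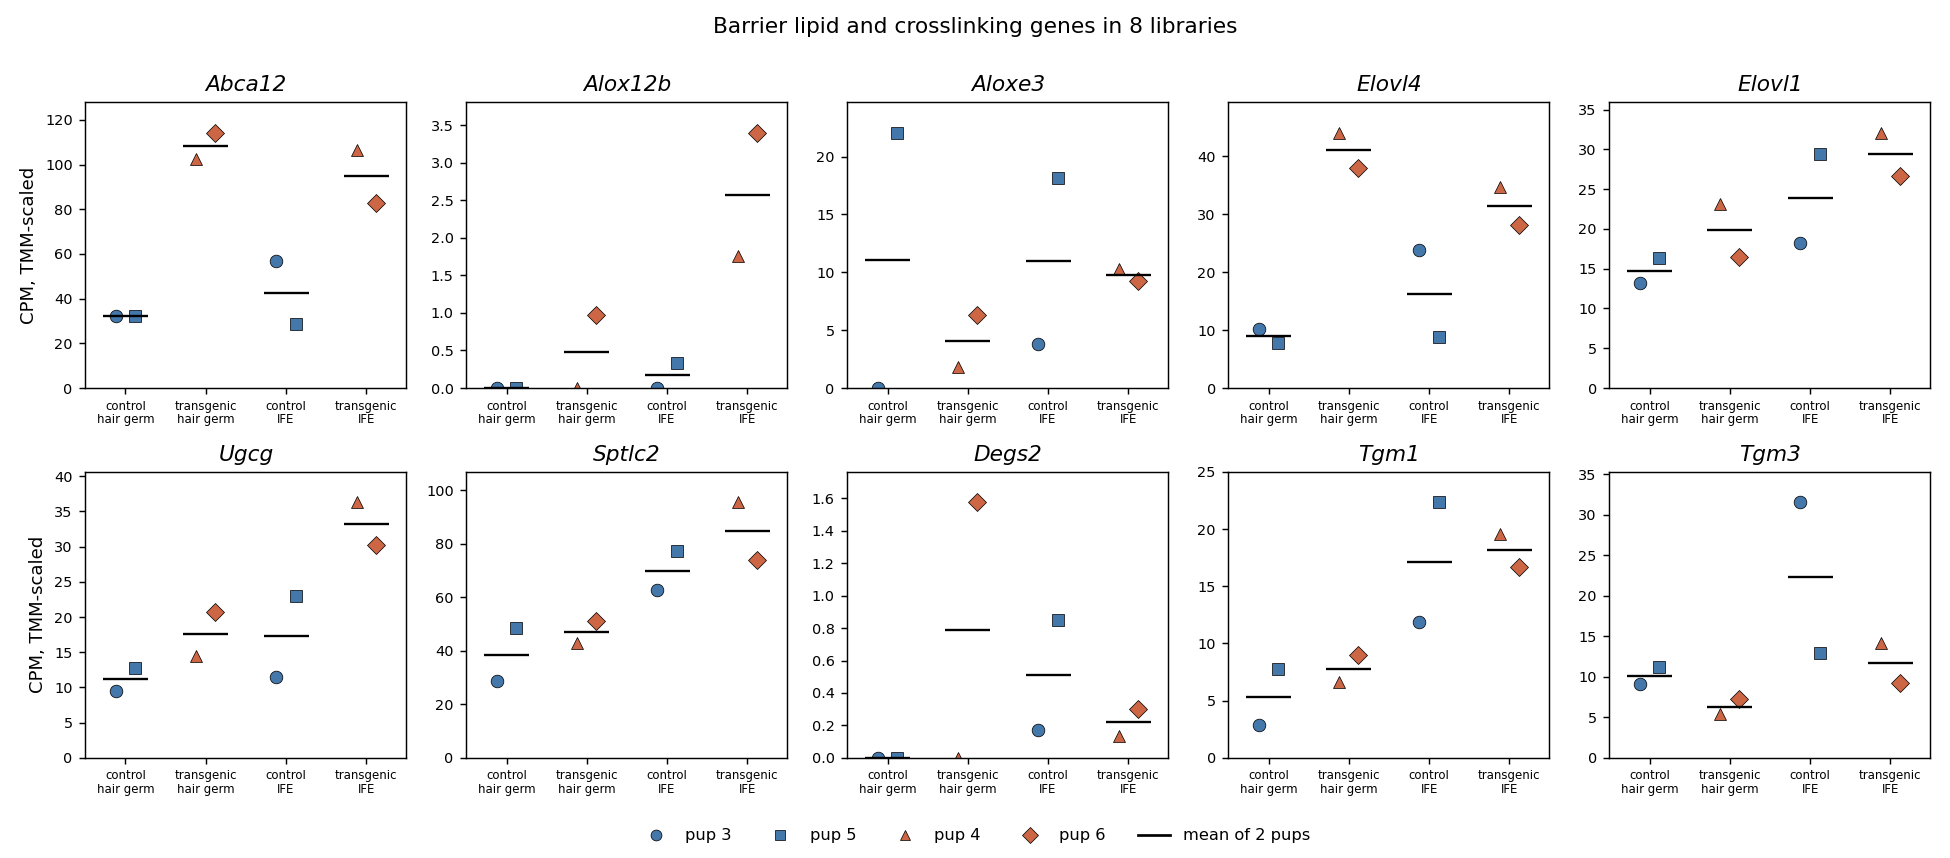
TMM-scaled CPM (vertical axes, each from 0) of the 10 genes in the 8 libraries, by group, with 1 symbol for each pup and a bar at the mean of 2 pups. Abca12 and Elovl4 in transgenic hair germ lie far above the control hair germ libraries, whereas Tgm3 lies lower there and Degs2 stays near 0.

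The lipid transporter Abca12 had higher transcript levels in transgenic pups in both populations. Abca12 is the ATP-binding cassette transporter that loads glucosylceramides into lamellar granules (chr1:71242276-71414910, minus strand, GRCm38). In hair germ it had 32.4 and 32.0 CPM in control pups 3 and 5, and 102.4 and 114.3 CPM in transgenic pups 4 and 6. The control pair was nearly equal, and both transgenic libraries lay more than 3-fold above it. The means were 32.2 ± 0.276 (SD, n = 2) and 108.3 ± 8.42 CPM (SD, n = 2), a log2 fold change of 1.75 ± 0.31 (SE), or 3.36-fold (edgeR quasi-likelihood test, adjusted p = 0.0281). In IFE it had 56.9 and 28.4 CPM in the control pups and 106.6 and 83.0 CPM in the transgenic pups. The groups did not overlap, but the controls were 2-fold apart, pup 3 lying above pup 5. The log2 fold change there was 1.17 ± 0.31 (SE), or 2.25-fold (edgeR adjusted p = 0.0466), from 42.7 ± 20.2 to 94.8 ± 16.7 CPM (SD, n = 2 each).

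Elovl4 (chr9:83778692-83806277, minus strand), the elongase that makes the ultra-long acyl chains of skin acylceramides, rose in transgenic hair germ. It had 10.2 and 7.84 CPM in control hair germ and 44.1 and 38.1 CPM in transgenic hair germ, without overlap. The means were 9.02 ± 1.66 and 41.1 ± 4.28 CPM (SD, n = 2 each), a log2 fold change of 2.20 ± 0.45 (SE), or 4.58-fold (edgeR adjusted p = 0.0459). In IFE, Elovl4 had 23.9 and 8.74 CPM in the controls and 34.8 and 28.2 CPM in the transgenic pups. The log2 difference of 1.02 ± 0.45 (SE; 95% interval 0.04 to 1.99) did not pass the adjusted test there (edgeR adjusted p = 0.262). Here too control pup 3 was the higher of the control pair.

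For both genes the 95% interval of the difference between the hair germ and IFE effects included 0. It was 0.58 ± 0.43 (SE; 95% interval -0.37 to 1.53) on the log2 scale for Abca12 (edgeR adjusted p = 0.839), and 1.18 ± 0.63 (SE; -0.19 to 2.55) for Elovl4 (edgeR adjusted p = 0.695). None of the 9 tested genes passed the edgeR test of this difference, which 0.134% of all genes passed. None had an unadjusted p under 0.05, as 8.11% of all genes did, and DESeq2 called 0 of the 9 and 177 of all 14176 genes.

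The calls of Abca12 and Elovl4 lay close to the threshold while their direction held. Leaving out any 1 hair germ library gave log2 fold changes of 1.64 to 1.79 for Abca12 and 2.01 to 2.34 for Elovl4, with no fit below the adjusted threshold (adjusted p 0.0535 to 0.152 and 0.0696 to 0.173, edgeR with the lone library assumed to vary like the other groups). In IFE the Abca12 difference was 0.74 without control pup 5 (edgeR adjusted p = 0.401) and 1.79 without control pup 3 (edgeR adjusted p = 0.012). Without the 2 libraries rich in Rn45s, the Abca12 differences were 1.73 in hair germ and 1.57 in IFE (edgeR adjusted p = 0.0582 and 0.155), and the Elovl4 difference in hair germ was 2.20 (edgeR adjusted p = 0.106).

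Seen over all members, 2 of the 9 tested genes were called higher in transgenic hair germ and none lower, where 0.952% of all 14176 genes were called in either direction and 0.762% were called higher. In IFE 1 of 9 was called higher and none lower, with 6.34% of all genes called and 4.99% called higher. The log2 fold changes of the 9 were above 0 for 7 genes in each population. Their medians were 0.49 in hair germ and 0.27 in IFE, beside 0.04 and -0.01 over all genes, and setting Alox12b to its lower bound in hair germ left the first of these as it was. The groups did not overlap, with transgenic higher, in 4 of the 9 genes in hair germ (22.4% of all genes) and in 4 in IFE (27.9%), and with transgenic lower in 1 (16.9%) and 0 (25.0%).

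**Figure D2:**
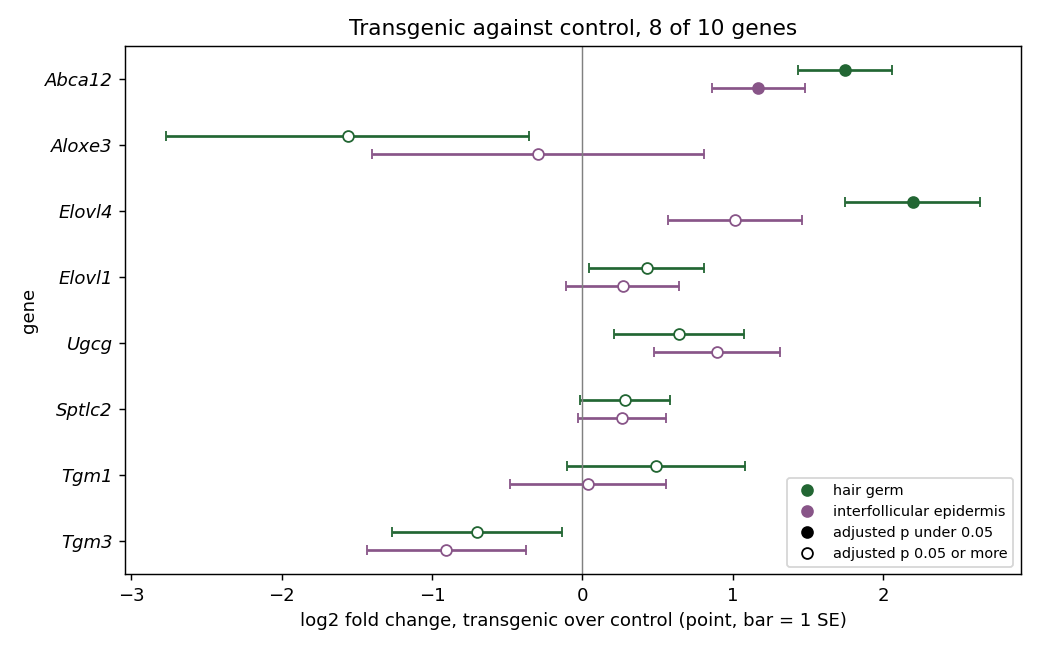
Log2 fold change of transgenic over control pups in hair germ and in IFE for 8 genes (points, bars 1 SE, filled where the edgeR adjusted p was under 0.05). Degs2 was not tested and Alox12b, at 0 in both control hair germ libraries, is left out. Filled points are seen for Abca12 in both populations and for Elovl4 in hair germ.

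Abca12 and Elovl4 were the members called, so their RefSeq promoters are printed (GRCm38.p6), 250 bases before the annotated start in lower case and the first 50 bases from it in capitals.
Abca12, chr1:71414861-71415160, minus strand: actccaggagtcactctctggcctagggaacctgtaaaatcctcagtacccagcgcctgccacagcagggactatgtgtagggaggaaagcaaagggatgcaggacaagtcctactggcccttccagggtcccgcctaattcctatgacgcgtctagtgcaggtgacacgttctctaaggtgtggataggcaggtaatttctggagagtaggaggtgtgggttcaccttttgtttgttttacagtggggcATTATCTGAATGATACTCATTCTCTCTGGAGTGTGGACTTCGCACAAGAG
Elovl4, chr9:83806256-83806555, minus strand: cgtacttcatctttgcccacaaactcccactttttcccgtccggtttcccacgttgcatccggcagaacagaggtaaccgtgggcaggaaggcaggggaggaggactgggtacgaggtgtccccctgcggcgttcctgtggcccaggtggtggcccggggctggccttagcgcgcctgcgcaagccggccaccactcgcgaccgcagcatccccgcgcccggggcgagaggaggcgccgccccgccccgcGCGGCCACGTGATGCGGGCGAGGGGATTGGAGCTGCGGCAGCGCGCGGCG
The Elovl4 window is rich in G and C, and the Abca12 window is less so. On either strand, neither held the AP-1 motif TGANTCA (in 7.81% of 32851 promoters), the Grainyhead-like motif AACCGGTT (in 0.146%) or the Klf motif CACCC (in 57.5%). Of 11 promoter windows from 9 of the genes, 9 held CACCC and none held the other motifs, and Aloxe3 was not among the promoters used. These letters being absent from a window says nothing of the factors.

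Neither the second elongase nor the 2 tested ceramide enzymes passed the test of the transgene. Elovl1, which lengthens saturated acyl chains for ceramides (chr4:118428093-118432953, plus strand), had 13.2 and 16.3 CPM in control and 23.1 and 16.5 CPM in transgenic hair germ, and 18.3 and 29.5 against 32.1 and 26.7 CPM in IFE. The transgenic pair lay just above the control pair in hair germ and overlapped it in IFE, and the log2 differences of 0.43 and 0.27 did not pass (edgeR adjusted p = 0.609 and 0.845). Sptlc2 is a subunit of serine palmitoyltransferase, which starts sphingolipid synthesis (chr12:87305058-87388355, minus strand). It had 28.6 and 48.4 CPM in control and 43.0 and 51.0 CPM in transgenic hair germ, and 62.7 and 77.2 against 95.4 and 73.8 CPM in IFE. The transgenic and control libraries overlapped in both populations, with log2 differences of 0.28 ± 0.30 and 0.27 ± 0.29 (SE). These 95% intervals ran from -0.36 to 0.93 and from -0.37 to 0.91.

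Ugcg, which adds glucose to ceramide (chr4:59189257-59222833, plus strand), had 9.49 and 12.8 CPM in control and 14.5 and 20.7 CPM in transgenic hair germ. In IFE it had 11.5 and 23.0 CPM in the controls and 36.3 and 30.2 CPM in the transgenic pups. The transgenic libraries were the higher in both populations without overlap, but the log2 differences of 0.64 and 0.90 did not pass (edgeR adjusted p = 0.482 and 0.301). Degs2, which hydroxylates dihydroceramides to make phytoceramides (chr12:108678711-108702315, minus strand), had 29 counts in all 8 libraries. It was at 0 in both control and 1 of 2 transgenic hair germ libraries, where 13 counts came from pup 6, and between 1 and 10 counts in each IFE library. Of its exon bases 13.01% overlap Evl on the opposite strand, and how strand was used in counting is not stated in the labels, so those counts cannot be assigned with certainty.

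Of the epidermal lipoxygenases, Alox12b was nearly undetected in controls and Aloxe3 was not. Alox12b and Aloxe3 act in sequence on the linoleate of acylceramides, and they are neighbours on chromosome 11, 7873 bases apart (chr11:69156989-69169792 and chr11:69125896-69149115, both on the plus strand). Alox12b had 0 counts in both control hair germ libraries, a count that allows up to 0.264 and 0.199 CPM, and 0 and 8 counts (0.969 CPM) in the transgenic ones, at least 3.594-fold higher over the group against a floor of 3 counts. All 8 counts came from pup 6. In IFE it had 0 and 4 counts in the controls and 13 and 45 in the transgenic pups, or 0 and 0.340 against 1.75 and 3.40 CPM. This was a log2 difference of 3.53 ± 1.61 (SE) that did not pass (edgeR adjusted p = 0.277). Such limits cover counting error only.

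Aloxe3 varied more between control pups than between genotypes. It had 0 and 22.1 CPM in control hair germ, 1.85 and 6.30 CPM in transgenic hair germ, 3.83 and 18.2 CPM in control IFE, and 10.3 and 9.22 CPM in transgenic IFE. Control pup 5 was the highest and control pup 3 the lowest pup in IFE as in hair germ. The 2 controls carry different constructs of the transgene system, so genotype and animal cannot be told apart here. The log2 differences were -1.56 ± 1.21 in hair germ and -0.30 ± 1.103 in IFE (SE; edgeR adjusted p = 0.547 and 0.956), and leaving out 1 hair germ library gave -2.65 to 8.27 for the first of these. The upper value sets the transgenic pups against control pup 3 alone, which was at 0, and is no bound on the change.

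The transglutaminases crosslink the proteins of the cornified envelope. Tgm1, the membrane-bound enzyme (chr14:55700009-55713926, minus strand), had 2.90 and 7.77 CPM in control and 6.602 and 8.97 CPM in transgenic hair germ, and 11.8 and 22.3 against 19.6 and 16.7 CPM in IFE. Genotypes overlapped in both populations, with log2 differences of 0.49 and 0.04 (edgeR adjusted p = 0.720 and 0.995). Tgm3, a soluble enzyme activated by proteolysis (chr2:130012349-130050399, plus strand), had 9.05 and 11.2 CPM in control and 5.37 and 7.27 CPM in transgenic hair germ. It was the member lower in both transgenic hair germ libraries without overlap. In IFE it had 31.5 and 12.99 CPM in the controls and 14.2 and 9.22 CPM in the transgenic pups, and neither log2 difference, -0.70 and -0.91, passed (edgeR adjusted p = 0.565 and 0.453).

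Between the populations, 5 of the genes had less transcript in hair germ than in IFE in every pup, as did 15.4% of all tested genes, and no member passed the test over samples. These were Elovl1, Ugcg, Sptlc2, Tgm1 and Tgm3, with Alox12b and Aloxe3 lower in 3 of 4 pups and Abca12 and Elovl4 in 2. Per pup, on the log2 CPM scale with a prior count of 2, hair germ minus IFE for Tgm1 was -1.96 (pup 3), -1.499 (pup 5), -1.54 (pup 4) and -0.88 (pup 6). For Sptlc2 it was -1.13, -0.67, -1.14 and -0.53 in the same order. Elovl1 differed by between -0.84 and -0.47, Ugcg by between -1.31 and -0.27, and Tgm3 by between -1.78 and -0.21. In bulk libraries such as these, fewer cells of a type and less RNA per cell cannot be told apart.

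Fitted over the groups, Tgm1 differed between populations by -1.68 ± 0.56 in controls and -1.23 ± 0.55 in transgenic pups (log2, SE; edgeR adjusted p = 0.501 and 0.263). The Sptlc2 differences were -0.86 ± 0.30 and -0.85 ± 0.30 (edgeR adjusted p = 0.507 and 0.141). In controls edgeR called 0 of 9 genes, where it called 0.00705% of all genes, and 2 had an unadjusted p under 0.05 (8.47% of all genes). DESeq2 called 0 of the 9 there, and 149 of all 14176 genes. In transgenic pups edgeR called 0 of 9, where it called 4.62% of all genes, and 3 had an unadjusted p under 0.05 (18.5% of all genes). DESeq2 called 0 of the 9 there, and 906 of all 14176 genes. All 9 log2 differences were below 0 in controls (median -0.79, all genes -0.04) and 7 of 9 in transgenic pups (median -0.87, all genes 0.02). With the pup as a block, 0 members were called in either genotype.

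**Figure D3:**
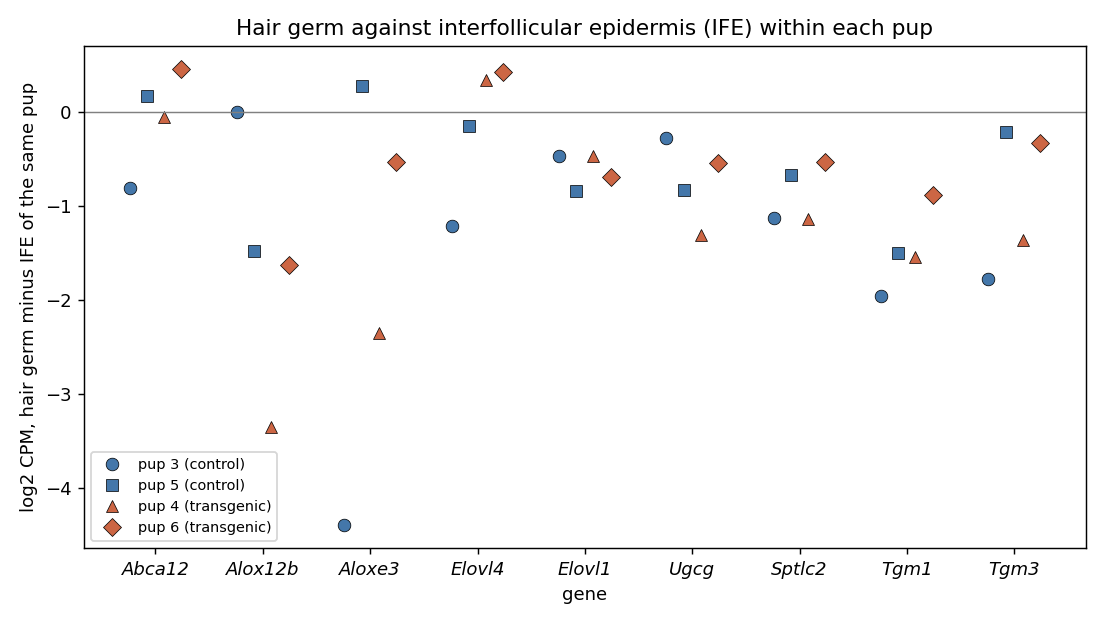
Log2 CPM in hair germ minus that in IFE of the same pup for the 9 tested genes, 1 symbol for each pup, with a line at 0. Tgm1 and Sptlc2 lie below 0 in all 4 pups, whereas Abca12 and Elovl4 lie on both sides of it.

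For Abca12 and Elovl4 the sign of this difference varied between pups. For Elovl4 hair germ minus IFE was -1.21 and -0.15 in control pups 3 and 5, and 0.34 and 0.43 in transgenic pups 4 and 6, without overlap of the genotypes. Abca12 differed by -0.81 and 0.17 in controls and by -0.06 and 0.46 in transgenic pups, so its genotypes overlapped. The tests of these differences between genotypes are those given above, which did not pass. Without the 2 libraries rich in Rn45s, the Abca12 and Elovl4 differences between control populations were 0.19 and 0.04 in place of -0.38 and -0.79.

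Among the other genes of the pathway, taken from 8 lists with the members left out, most did not pass in either population. Over all genes tested, 17.1% in hair germ and 17.3% in IFE had an unadjusted p under 0.05. DESeq2 called 663 of all 14176 genes in hair germ and 1095 in IFE. For ceramide synthesis and turnover, 0 of 20 genes were called in hair germ (3 at an unadjusted p under 0.05, 2 called by DESeq2) and 3 of 20, all higher, in IFE. The 3 were genes of lysosomes or of ceramide synthesis: Psap, the precursor of the saposins that help degrade glucosylceramide, rose from 413.5 ± 63.4 to 941.8 ± 225.8 CPM (SD, n = 2 each; log2 1.19, edgeR adjusted p = 0.00941), Asah1, acid ceramidase, by 1.23 (0.0346) and Cers2, a ceramide synthase for very long acyl chains, by 1.31 (0.0477). The median of the 20 was 0.19 in hair germ and -0.13 in IFE. All 3 calls were lost without both libraries of pup 4 and without the 2 libraries rich in Rn45s. The Cers2 call was also lost when any 1 IFE library was left out, with log2 differences of 0.97 to 1.74.

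The lists of very long chain fatty acid, envelope substrate and granular layer genes gave no calls in edgeR. For very long chain fatty acid and acylceramide genes, 0 of 15 were called in hair germ (1 unadjusted, 0 in DESeq2) and 0 in IFE (2 unadjusted, 0 in DESeq2), with medians of -0.18 and -0.16. The envelope substrates of the transglutaminases gave 0 of 11 in hair germ (1 unadjusted, 0 in DESeq2) and 0 in IFE (3 unadjusted, 0 in DESeq2), with medians of 0.43 and 0.55. The granular layer proteases and adhesion genes gave 0 of 11 in hair germ (2 unadjusted, 0 in DESeq2) and 0 in IFE (4 unadjusted, 1 in DESeq2), with medians of 0.57 and 0.30.

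Calls in the lipoxygenase list fell on genes of leukotriene synthesis. Alox5, which starts leukotriene synthesis in myeloid cells, had 5.57 and 8.49 CPM in control IFE and 114.2 and 136.5 CPM in transgenic IFE (log2 4.11, edgeR adjusted p = 0.000899). Its partner Alox5ap had 1.22 and 6.28 against 116.5 and 100.2 CPM (log2 4.66, edgeR adjusted p = 0.00200). These were the 2 calls among 7 lipoxygenase pathway genes in IFE (median 1.501), and in hair germ 0 of 7 were called (2 unadjusted, 0 in DESeq2; median 0.43).

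The cholesterol exporters Abca1 and Abcg1 were the calls among 13 transporter and lamellar granule genes. Abca1 rose in hair germ from 47.3 ± 14.96 to 123.8 ± 15.01 CPM (log2 1.39, edgeR adjusted p = 0.0404) and in IFE from 45.0 ± 1.60 to 264.1 ± 75.7 CPM (SD, n = 2 each; log2 2.55, edgeR adjusted p = 0.000315). Abcg1 rose in IFE from 3.76 ± 1.83 to 38.3 ± 8.06 CPM (SD, n = 2 each; log2 3.46, edgeR adjusted p = 0.00211). The medians of the 13 were -0.18 and 0.32. Among 4 other transglutaminases, F13a1, the coagulation factor XIII subunit found in macrophages, rose in both populations (log2 6.08, edgeR adjusted p = 0.00930 in hair germ, from 0 and 0.266 to 13.8 and 7.76 CPM, and log2 5.07, edgeR adjusted p = 0.000169 in IFE, from 2.44 and 2.72 to 69.5 and 106.2 CPM). The other 3 did not share one direction. Tgm2 was at 0 in all 4 controls and had 4.58 and 1.70 CPM in transgenic hair germ and 3.91 and 3.02 CPM in transgenic IFE, at least 29.65-fold and 19.52-fold higher against a floor of 3 counts over the group, but did not pass (edgeR adjusted p = 0.127 and 0.120). These Tgm2 bounds cover counting error only and not the spread between pups, and 52 of the 66 counts in transgenic hair germ came from pup 4. Tgm5 had means of 20.1 and 53.0 CPM in control and transgenic hair germ and 27.5 and 19.8 CPM in IFE, and Tgm7 had 10.8 and 5.33 CPM and 5.84 and 0.631 CPM, with no call. The list's medians of 3.74 and 2.33, or 3.15 and 1.94 with Tgm2 at its bound, thus lie between genes above and below 0. Tgm2, Tgm5 and Tgm7 were named after their values were seen.

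Of 20 regulators of barrier formation, 0 were called in hair germ (4 unadjusted, 3 in DESeq2; median 0.08) and 1 rose and 1 fell in IFE (median 0.08). Trp63, the transcription factor p63 that maintains basal keratinocytes, fell in transgenic IFE from 1108.4 and 1089.1 CPM to 598.3 and 651.3 CPM (log2 -0.81 ± 0.20 SE, edgeR adjusted p = 0.0356). In hair germ it had 1231.2 and 1074.7 against 1339.5 and 1093.3 CPM, with overlap. The gene that rose was Pparg, a lipid-sensing nuclear receptor, named after its values were seen because its mean level was under the limit set for naming. It had 0 and 0.0849 CPM in control IFE and 9.85 and 6.499 CPM in transgenic IFE. Neither call held when any 1 IFE library was left out, and the Trp63 log2 difference was then -0.85 to -0.74.

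**Figure D4:**
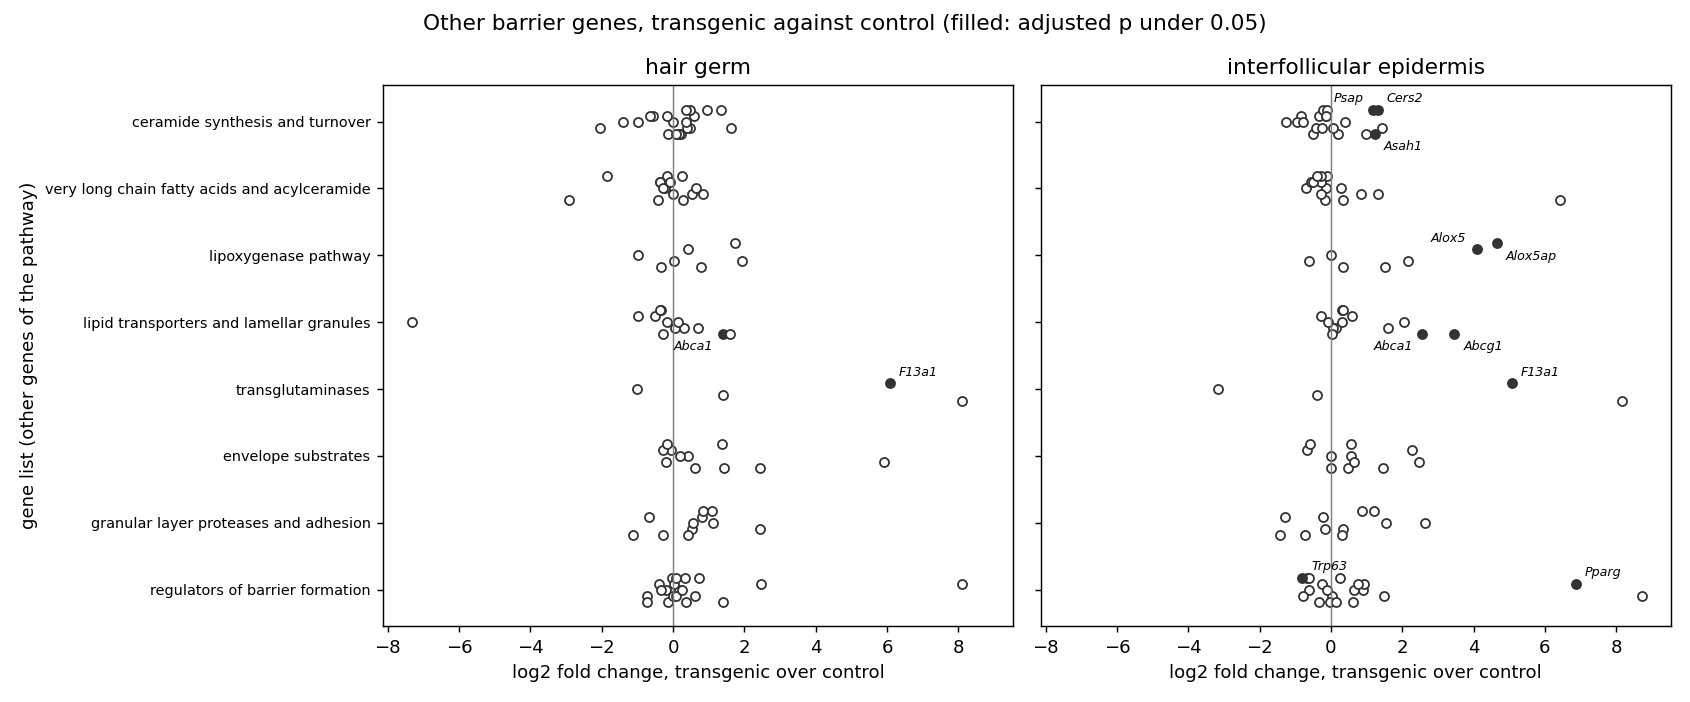
Log2 fold change of transgenic over control for each tested gene of the 8 pathway lists, members left out, in hair germ (left) and IFE (right), filled where the edgeR adjusted p was under 0.05. The filled points include Abca1 and F13a1 in both populations, and Alox5, Alox5ap and Abcg1 at log2 3.46 to 4.66 in IFE.

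Markers of other cell types moved with the genotype beside these genes. The summed CPM of 15 immune markers, among them Ptprc, Csf1r and Lyz2, was 66.5 to 139.7 in control and 235.5 to 386.9 in transgenic hair germ, and 103.5 to 215.9 in control and 2565 to 3429 in transgenic IFE. Of the 15, 4 were called higher in hair germ and 14 in IFE, while Lyz2, Fcer1g, Aif1 and Sfpi1 were at 0 in hair germ of control pup 3 and Sfpi1 and Cd207 in that of control pup 5. The 9 melanocyte markers summed to 21.3 to 32.8 CPM in the 4 control libraries and 142.3 to 194.1 in the 4 transgenic ones, with 4 called higher in hair germ and 5 in IFE, and Mlana and Sox10 at 0 in all 4 controls. The largest were Dct (45.1 and 61.9 CPM) in transgenic hair germ, and Gpnmb (68.7 and 41.3) and Mitf (54.1 and 43.2) in transgenic IFE. Like sums in the 2 transgenic populations thus came from different genes. Between these populations 7 of the 9 were higher in hair germ and 2 lower. Dct was called higher there (log2 1.78, edgeR adjusted p = 0.0469) and Mitf lower (log2 -1.45, edgeR adjusted p = 0.0457). Tyr was not higher in transgenic IFE (14.8 and 11.6 against 18.6 and 12.8 CPM in controls). The 8 sebaceous markers, which include Pparg, summed to 51.4 to 56.1 in control and 102.7 to 124.6 CPM in transgenic IFE, and overlapped in hair germ. Most of the rise in IFE came from Plin2 (12.9 and 7.39 against 75.1 and 55.3 CPM). Scd1 (32.9 and 38.0 against 31.4 and 32.6) and Scd3 (8.01 and 5.18 against 4.86 and 5.14) were not higher there. The 6 fibroblast markers summed to 152.7 and 335.0 CPM in control and 74.4 and 117.4 CPM in transgenic hair germ, and to 81.8 and 251.2 against 39.8 and 62.0 CPM in IFE, lower in the transgenic pups without overlap and mostly from Dcn, with no marker called. The 5 endothelial markers summed to 0.703 and 3.06 CPM in control and 6.69 and 4.36 CPM in transgenic hair germ. In IFE they summed to 4.88 and 0 against 15.5 and 11.0 CPM. Within each population they were higher in the transgenic pups without overlap, at low levels and with none called. The part of these 5 lists in the results for Abca12, Elovl4 and the pathway genes was not tested.

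Keratinocyte markers were summed for each library as well. The 7 hair germ markers summed to 2511 to 3771 CPM in the 4 hair germ libraries and 1537 to 2184 CPM in the 4 IFE libraries, without overlap. Krt17 made up most of this sum, and the list includes Cdh3, the P-cadherin gene used in the sort. All 7 were higher in hair germ of both genotypes, with 0 called in controls and 4 in transgenic pups. Cdh3 itself overlapped between the control populations (log2 0.22, edgeR adjusted p = 0.804). The 7 basal markers summed to 25284 to 34965 CPM in controls and 15999 to 20540 CPM in transgenic libraries, with 5 called lower in IFE and 0 in hair germ. The 8 suprabasal markers found summed to 1112 to 1854 CPM in control and 1116 to 1420 CPM in transgenic hair germ, with medians of log2 fold change of 0.08 in hair germ and -0.04 in IFE and none called. Krt1 and Krt10 made up most of this sum. Of the other markers in it, Lor (1.41 and 1.86 against 12.9 and 4.73 CPM), Dsc1 (6.33 and 18.2 against 30.8 and 22.7) and Sbsn (21.2 and 14.2 against 35.2 and 25.9) were higher in both transgenic than in both control hair germ libraries, as Abca12 and Elovl4 were. Their edgeR adjusted p was 0.133, 0.248 and 0.321, they were named after their values were seen, and their part in the Abca12 and Elovl4 results was not tested. The rest of the list overlapped between genotypes in hair germ. Krtdap had 56.8 and 52.0 against 74.6 and 43.0 CPM, and Ivl 0 and 1.86 against 1.58 and 0. Dsg1a had 162.9 and 85.7 against 88.7 and 68.0 CPM, Krt1 1030.6 and 606.6 against 708.7 and 482.4, and Krt10 575.0 and 332.1 against 468.0 and 469.7. In control IFE, pup 3 had the highest suprabasal sum of all libraries, 4820 against 1888 CPM in pup 5, and of the 10 genes Abca12, Elovl4 and Tgm3 were higher there than in pup 5 and the other 7 lower.

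**Figure D5:**
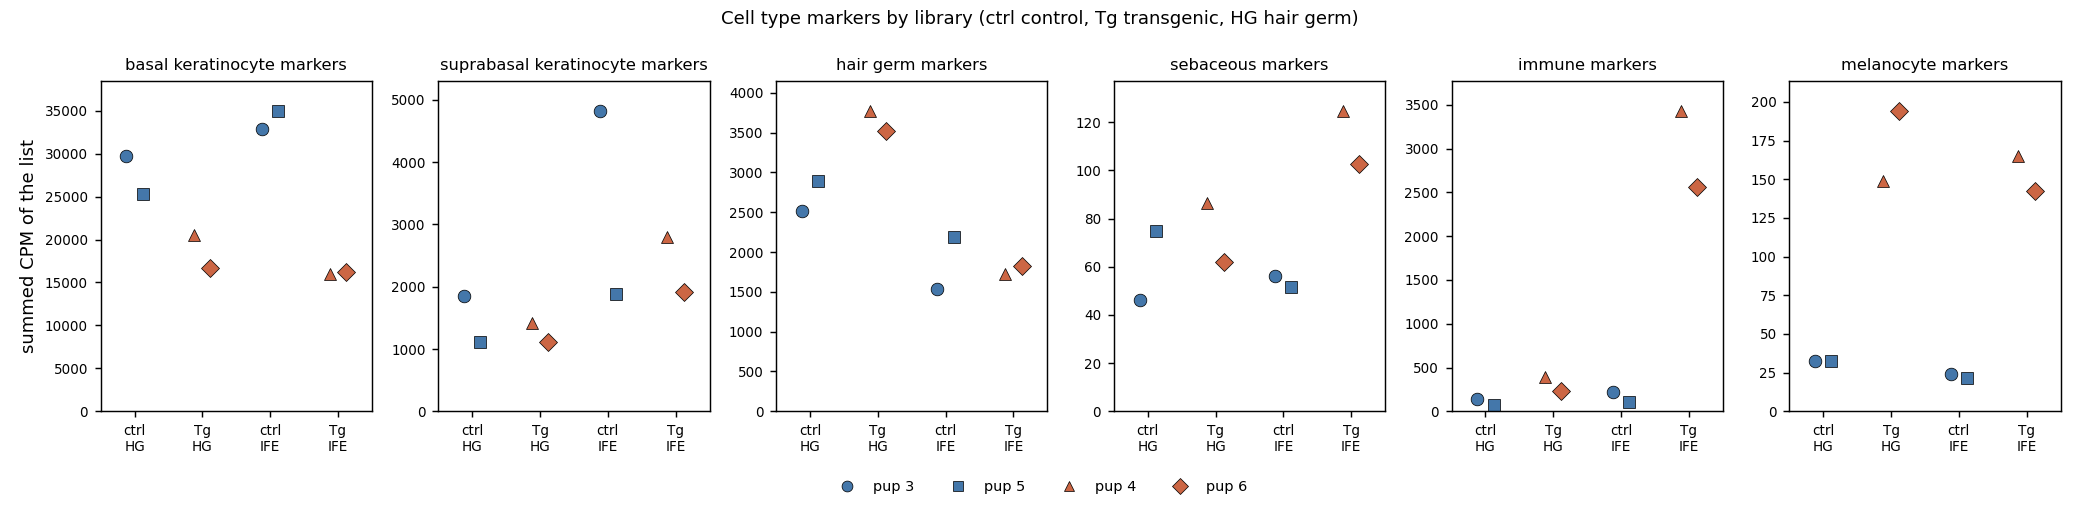
Summed CPM of 6 marker lists in the 8 libraries (vertical axes from 0, 1 symbol for each pup). Immune markers reach 3429 CPM in transgenic IFE, and the suprabasal sum is highest, at 4820 CPM, in IFE of control pup 3.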

How the data were processed

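RNA was measured in 8 libraries. The authors deposited raw counts, 1 read count for each gene symbol and library, made per the submitters' processing notes with TopHat, HTSeq and DESeq2 on mm10 (GRCm38). Tool versions, and whether strand was used, were not given in the sources used here. Per the labels' protocols, RNA was extracted with Trizol and libraries were made with a SMARTer stranded low-input kit. The 5 HTSeq summary lines were left out, and the authors' normalised matrix was not used.

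From the counts, edgeR 4.0.16 in R 4.3.3 computed TMM factors, kept 14176 genes (filterByExpr, minimum count 10), fitted 4 group means over 8 libraries (glmQLFit, legacy FALSE) and tested contrasts with glmQLFTest, two-sided, with Benjamini-Hochberg adjustment over all genes tested and a threshold of 0.05. Residual degrees of freedom were 4, and the biological coefficient of variation common to all genes was 0.4746. A count of 0 was given a limit of 3 counts, 0.199 to 0.522 CPM per library. DESeq2 1.42.0 was an alternative. The fits were tested on simulated data.

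Per the labels a pup number is 1 animal, which pairs the populations. Deviations of the paired libraries from their group means correlated across genes at 0.1169 in controls and 0.0868 in transgenic pups. The pups are separate animals, and no library was repeated.

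The members and the gene lists were chosen with earlier results of these data known. The named genes are the 10 members, up to 3 non-members for each list with the smallest p among those called (mean log2 CPM 2 or more), and the 8 genes (mean log2 CPM 4 or more) most like the members' mean profile. Flg and Csta1 of the lists were not among the symbols. Exon lengths and UTRs came from GENCODE vM21, and promoters and microRNAs from RefSeq GRCm38.p6.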

Additional observations from a re-analysis of the deposited data

How the results depend on the processing

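Counts of called genes depended on the fit. The number changed by the transgene in hair germ, 135 as reported, was 663 in DESeq2, 316 with library size alone, 54 with the legacy edgeR method, 1 without both libraries of pup 4 and 20 without the 2 libraries richest in Rn45s. In IFE, 899 as reported became 541 with the legacy method, 207 without pup 4 and 195 without the Rn45s-rich libraries. Leaving out 1 library gave 14 to 347 and 303 to 537. Between populations in controls, 1 as reported became 149 in DESeq2, 29 with library size alone, 2 with RLE factors, 3 without the filter, 6 with the legacy method, 0 without the Rn45s-rich libraries and 0 to 123 with 1 library left out. In transgenic pups 655 became 336 with the legacy method, 0 without pup 4, 192 without the Rn45s-rich libraries and 47 to 368 with 1 library left out. For the difference of effects 19 became 177 in DESeq2, 97 with library size alone, 45 without the filter, 2 with the legacy method, 0 without pup 4, 0 without the Rn45s-rich libraries and 0 to 192 with 1 left out. With the pup as a replicate block, counts were 7 in controls, 1018 in transgenic pups and 86 for the difference of effects, and no member's call changed. Members called in hair germ, 2 as reported, became 0 with the legacy method, without pup 4, without the Rn45s-rich libraries and with any 1 library left out (0 to 0). In IFE the 1 call became 0 in the same fits except without control pup 3 (0 to 1). Abca12 kept its direction in all these fits, with adjusted p of 0.351 in hair germ and 0.541 in IFE without pup 4. Some signs turned. Aloxe3 between control populations was 0.18 with library size alone and 0.023 in DESeq2, and -9.85 to 1.59 with 1 library left out. Tgm1 in IFE was -0.016 without pup 4, and without the Rn45s-rich libraries Tgm1 was -0.40, Elovl1 -0.12 and Sptlc2 -0.044 in IFE, and Abca12 was 0.19 and Elovl4 0.036 between control populations. With 1 left out, hair germ effects were -0.091 to 0.71 for Sptlc2, -0.057 to 1.41 for Tgm1 and -2.65 to 8.27 for Aloxe3, and IFE effects -0.25 to 0.61 for Tgm1 and -0.85 to 1.34 for Aloxe3. Abca12 was -0.82 to 0.21 and Elovl4 -1.42 to 0.063 between control populations, Abca12 -0.013 to 0.37 between transgenic populations, and the difference of Abca12 effects -0.054 to 1.01. The cause was not tested. Scaling by library size alone moved the median of all genes by up to 0.26 (log2), and member medians were 0.52 in hair germ and 0.39 in IFE. List counts and values of genes outside the 10 were recomputed under fits added after seeing the data.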

Other observations

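Over the 8 libraries, 8 of 7670 other genes (mean log2 CPM 4 or more) were named as most like the mean standardised log2 CPM of the 9 tested members. Sgpl1, the lyase that ends sphingolipid breakdown by cleaving sphingosine phosphate, came first with a Pearson r of 0.987, and its mean level was 85.7 CPM in control hair germ, 120.0 in transgenic hair germ, 140.5 in control IFE and 214.7 in transgenic IFE. Necap1 (r = 0.986), Rbm47 (0.979), Pld2 (0.978), Rassf5 (0.973), Usp12 (0.972), Ufsp2 (0.972) and Il13ra1 (0.970) followed. In each of these genes the group order was control hair germ below transgenic IFE. These values describe likeness over libraries that share their sorts and pups, and the likeness itself was not tested. Between genotypes in IFE, Sgpl1 had a log2 difference of 0.61 (edgeR adjusted p = 0.257).

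Within genotypes, the order of the pups recurred in both populations for some members. Aloxe3, Elovl1, Ugcg, Sptlc2 and Tgm1 were higher in control pup 5 than in control pup 3 in hair germ and in IFE, whereas Abca12 and Elovl4 were not higher in pup 5 in either. Of the transgenic pups, pup 6 lay above pup 4 in both populations for 2 of 10 members, Alox12b and Degs2.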
